A study of Homo sapiens with 191 samples.

Results

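The regions described here are the promoters of long non-coding RNA (lncRNA) genes that are not also promoters of protein-coding genes, in 1 list of 50000 accessible regions of the human lymphoblastoid line GM12878. A region, which reaches 250 bp to each side of its centre, was a member where its centre lay within 1 kb of an annotated transcription start site (TSS) of a gene of type lncRNA and more than 1 kb from every TSS of a protein-coding gene. This rule, which uses position alone, gave 2116 regions, 4.23% of the list. They are set beside 16365 protein-coding promoter regions (centre within 1 kb of a protein-coding TSS) and 15812 distal regions (centre more than 10 kb from every TSS of any annotated gene). The remaining 15707 regions belong to none of these classes. GM12878 is a B cell line made by transformation with Epstein-Barr virus, and the cells were fixed, permeabilised, transposed in bulk without antibody staining and sorted one by one into wells. The single-cell libraries covered here, 96 on plate 1 and 95 on plate 2, form 1 group. The list was called by the authors on the pooled cells, so neither single cells nor replicates have values of their own, and the depth behind the pooled list is unknown. Each comparison is therefore between classes of regions within this list, and no p-value is given. Intervals are at 95% and cover counting error only, since regions and genes are not replicates.

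The value of each region, called its score, is the −log10 of the q-value at the summit, as deposited by the authors. It ranks how clearly accessible a region was in the pooled cells and is not a level of RNA. Promoter regions were present for the B cell markers MS4A1, CD79A, CD79B, PAX5, EBF1, BLK and POU2AF1. None of 4 T cell, 4 erythroid, 4 hepatocyte or 4 myeloid markers had one.

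Long non-coding RNAs are transcripts that are mostly capped and spliced like messenger RNAs but encode no known protein. Some act at the locus where they are made, some act elsewhere in the cell, and some serve as hosts that release a small nucleolar RNA (snoRNA) from an intron or a microRNA from a hairpin. Their promoters are open where the gene is used, and many lncRNAs are restricted to few tissues.

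The sequences below show what such promoters look like from 100 bp before to 100 bp after the centre, for the strongest member of all, the strongest host of a microRNA, the strongest host of a snoRNA, and the strongest members whose central stretch of this length holds the motif of CTCF (an insulator protein) or of NF-kB (a factor of activated B cells). Each runs 5′ to 3′ on the plus strand of GRCh37 (hg19), and capitals mark every match, on either strand, to the 17 motifs spelled out with the motif results.
LINC01003, chr7:152160952-152161152: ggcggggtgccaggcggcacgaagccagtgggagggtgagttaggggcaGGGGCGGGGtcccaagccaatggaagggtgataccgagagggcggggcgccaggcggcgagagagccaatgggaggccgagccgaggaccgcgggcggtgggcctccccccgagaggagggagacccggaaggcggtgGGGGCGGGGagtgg
MIR3142HG, chr5:159894893-159895093: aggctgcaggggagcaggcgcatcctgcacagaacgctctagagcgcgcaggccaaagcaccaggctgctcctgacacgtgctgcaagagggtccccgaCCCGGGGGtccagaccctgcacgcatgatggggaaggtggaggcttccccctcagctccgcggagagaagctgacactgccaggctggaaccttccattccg
SNHG8, chr4:119199687-119199887: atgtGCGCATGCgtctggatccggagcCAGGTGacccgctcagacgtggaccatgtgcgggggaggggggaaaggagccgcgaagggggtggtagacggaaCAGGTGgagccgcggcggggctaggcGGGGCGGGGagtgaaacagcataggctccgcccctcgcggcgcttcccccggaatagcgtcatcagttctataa
ENSG00000287625 (CTCF motif), chr2:85153001-85153201: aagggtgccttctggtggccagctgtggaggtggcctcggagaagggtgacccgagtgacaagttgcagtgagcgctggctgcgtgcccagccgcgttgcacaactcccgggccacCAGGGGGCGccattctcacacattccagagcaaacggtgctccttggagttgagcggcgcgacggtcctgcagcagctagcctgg
ENSG00000288925 (NF-kB motif), chr1:203258732-203258932: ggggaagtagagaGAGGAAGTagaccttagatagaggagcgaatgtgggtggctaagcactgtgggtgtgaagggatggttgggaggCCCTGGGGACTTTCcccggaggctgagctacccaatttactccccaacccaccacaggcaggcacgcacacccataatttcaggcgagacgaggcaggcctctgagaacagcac
The LINC01003 stretch holds 2 SP/KLF matches, and that of SNHG8 holds SP/KLF, NRF1 and E2A matches. The MIR3142HG stretch holds only a match to the EBF1 letters. In the NF-kB example the match overlaps one to those letters, with a PU.1 match before it.

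The lncRNA promoters were intermediate in score between the other classes. Their median score was 40.9 (interval 37.8 to 44.2, quartiles 22.8 and 104.4, n = 2116), against 64.3 in protein-coding promoters (62.6 to 66.1, n = 16365). It was 24.3 in distal regions (n = 15812), whose many tied scores leave the interval at that single value. The protein-coding median was 1.57 times the lncRNA median, which was 1.69 times the distal one. A strong region was defined by a score of at least 74.9, the upper quartile of the list, which 25.1% of all regions reached. Among lncRNA promoters 693 were strong, or 32.8% (30.8 to 34.8%). This was 13.7 percentage points below the 46.5% of protein-coding promoters (interval of the difference −15.8 to −11.5). It was 20.1 points above the 12.7% of distal regions (18.1 to 22.2).

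**Figure D1:**
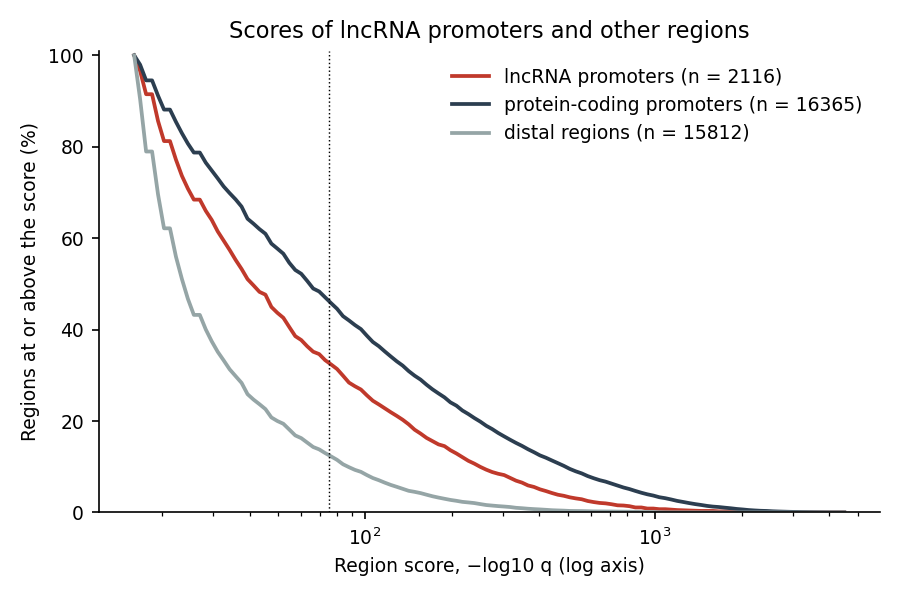
Share of regions at or above each score (vertical axis, percent) against the score in −log10 q (horizontal log axis) for lncRNA promoters, protein-coding promoters and distal regions, with the upper quartile of the list as a dotted line. The lncRNA curve lies between the others, at 32.8% strong regions against 46.5% and 12.7%.

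The ratio between the classes was larger at the top of the list. A score above 1000 was reached by 17 lncRNA promoters (0.803%), against 588 protein-coding promoters (3.59%) and 13 distal regions (0.0822%). Over all regions 632 reached it (1.26%), a share above that of the members. The highest lncRNA promoter, at LINC01003, had a score of 2465 and ranked 50 of 50000, while the highest protein-coding promoter reached 4438.

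Scores were highest close to the TSS, and the lncRNA promoters lay farther from it. The median distance from the centre to the nearest TSS of the class was 227 bp in lncRNA promoters (quartiles 71 and 567), which is 1.91 times that in protein-coding promoters (quartiles 43 and 372). Within 100 bp of the TSS lay 31.2% of lncRNA promoters, against 45.1% of protein-coding promoters. In that bin the median score was 69.6 for lncRNA promoters (57.4 to 80.3, n = 660), against 110.1 for protein-coding promoters (106.3 to 113.99, n = 7382). Between 100 and 250 bp the medians were 49.1 for lncRNA promoters and 74.9 for protein-coding promoters. Between 250 and 500 bp the lncRNA median was 31.6, against 39.4 for protein-coding promoters. Beyond 500 bp the lncRNA median was 31.6 (30.1 to 34.7, n = 620), against 33.1 in protein-coding promoters (31.6 to 33.1, n = 3001), and the intervals overlap.

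**Figure D2:**
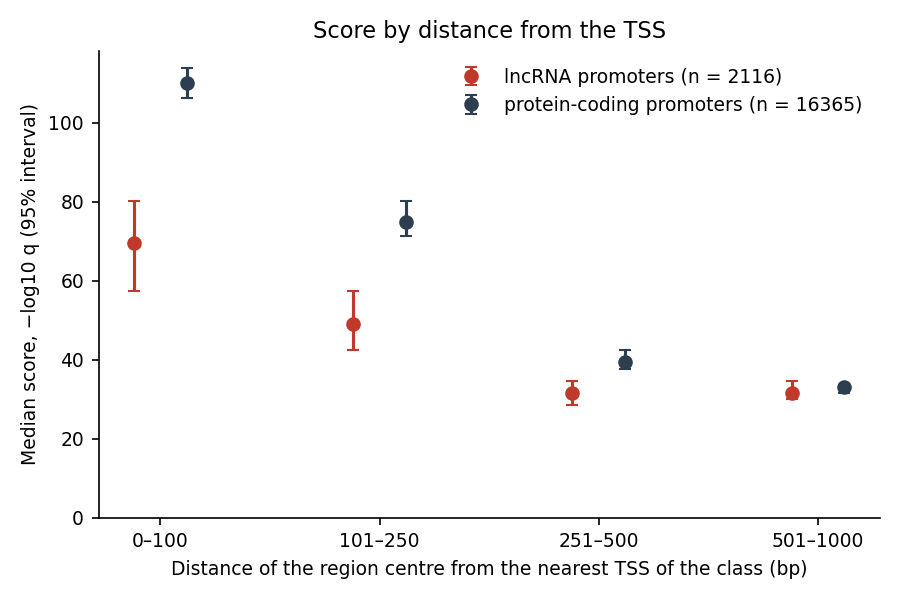
Median score in −log10 q (points) with its interval (bars) by distance of the region centre from the nearest TSS of the class in bp, for lncRNA promoters on the left of each bin and protein-coding promoters on the right. In the nearest bin the lncRNA median was 69.6 and the protein-coding one 110.1, and beyond 500 bp they lay at 31.6 for lncRNA and 33.1 for protein-coding promoters.

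The side of the TSS also differed. The centre lay upstream in 51.0% of lncRNA promoters and downstream in 48.5%, with a median score of 40.9 on each side. In protein-coding promoters 58.1% lay upstream, with a median of 87.6, against 47.4 downstream. Scores of lncRNA regions changed little across the edge of the window. Members at 900 to 1000 bp had a median of 29.4, and regions in the next 100 bp, which are not members, had 28.6. The 58 members with a protein-coding TSS in the 100 bp beyond the limit had a median of 39.4, and 54 regions left out for a protein-coding TSS at 900 to 1000 bp had 35.5.

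Base composition was intermediate too. Many promoters of widely used genes are CpG islands, stretches rich in GC and in the CpG dinucleotide. The mean GC content was 55.0% ± 8.88 in lncRNA promoters (SD, n = 2116), against 61.3% ± 9.15 in protein-coding promoters and 48.1% ± 5.71 in distal regions. Over all regions it was 53.2% ± 9.42. The observed to expected CpG ratio averaged 0.467 in lncRNA promoters, 0.692 in protein-coding promoters, 0.228 in distal regions and 0.405 over all regions. A region was CpG rich where GC was over 50% and the ratio over 0.6. This held for 702 lncRNA promoters, or 33.2% (31.2 to 35.2%), against 68.9% of protein-coding promoters, 2.25% of distal regions and 26.5% of all regions.

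At lower GC content the scores of both promoter classes came together. At 45 to 55% GC, which holds 858 of the members, the median score was 37.8 in lncRNA promoters (34.7 to 42.5) and 37.8 in protein-coding promoters (36.2 to 39.4), against 24.3 in distal regions. Up to 45% GC it was 28.6 in lncRNA promoters and 25.7 in protein-coding promoters, and the intervals overlap. At 55 to 65% GC the lncRNA median was 49.1 (42.5 to 57.4), against 83.9 (78.5 to 87.6) in protein-coding promoters. Above 65% GC it was 67.8 (55.8 to 83.9), against 85.8 (82.1 to 91.3) in protein-coding promoters, and these intervals overlap. Split by CpG, the 702 CpG-rich lncRNA promoters had a median of 74.9 (64.3 to 85.8), against 98.8 (96.9 to 102.5) in CpG-rich protein-coding promoters. The other 1414 had 33.1 (31.6 to 34.7), against 31.6 (31.6 to 33.1), a difference within the intervals.

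**Figure D3:**
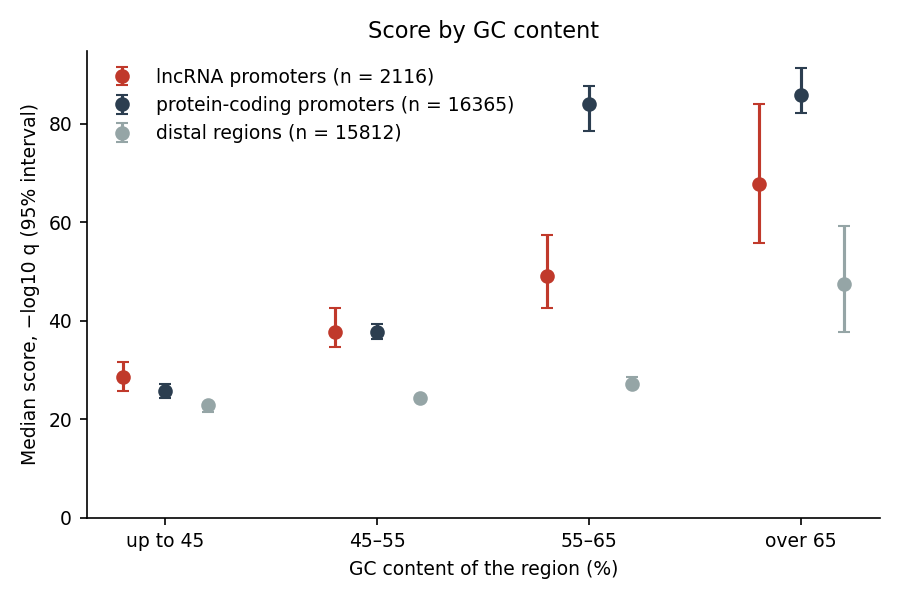
Median score in −log10 q (points) with its interval (bars) by GC content of the region in percent, for lncRNA promoters, protein-coding promoters and distal regions from left to right in each bin. Both promoter classes had 37.8 at 45 to 55% GC, and at 55 to 65% lncRNA promoters had 49.1 and protein-coding promoters 83.9.

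The strongest lncRNA promoters were mostly those of host genes and of genes known by number only. LINC01003 led with the 2465 given above, in a region at chr7:152160802-152161302 centred downstream of its TSS and 27323 bp from the nearest protein-coding TSS, that of KMT2C. SNHG8 followed with 2165 at chr4:119199537-119200037, 71 bp upstream of its TSS. DANCR, a snoRNA host known for holding progenitor cells back from differentiation, had 2162 at chr4:53578271-53578771, 29 bp downstream of its TSS. LINC02018 had 2088 at chr3:75484297-75484797, and 286 bp from that centre begins FAM86DP, a pseudogene of the FAM86 family. FAM86B3P itself, also annotated as a pseudogene there, had 1914 at chr8:8085362-8085862. The FAM86 copies are near-identical. The paper describes the reads it used as uniquely mapped, and the effect of the likeness between copies on these scores was not tested.

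The next in rank were ENSG00000243176 with 1656 at chr3:156892596-156893096 and ENSG00000291203 with 1587 at chr4:120375615-120376115, a gene that the annotation tags as overlapping a pseudogene. LINC01376 had 1380 at chr2:19547721-19548221, which lies 8702 bp from the TSS of OSR1. MIR3142HG, the host of miR-146a, had 1349 at chr5:159894743-159895243. LINC01431 had 1291 at chr20:23338626-23339126. Of these 10 regions, 9 had a GC content of 60.1% or more, and that of SNHG8 had 55.3%. MIR3142HG, with a CpG ratio of 0.499, was the only one of the 10 below 0.6.

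Seen from the genes, a minority of lncRNAs had an accessible region. Of 18592 annotated lncRNA genes, 1774 had at least 1 member region, which is 9.54%. A further 2239 (12.0%) had only a region that also lies within 1 kb of a protein-coding TSS, and 14579 (78.4%) had none. Because a TSS close to a protein-coding one can hardly give a member, the share was also taken over 13548 stand-alone lncRNA genes, with no TSS within 2 kb of a protein-coding TSS. Of these, 1426 had a member region, or 10.5% (10.0 to 11.1%). Among protein-coding genes 11503 of 20098 had a region within 1 kb of a TSS, which is 57.2%. Of the other 5044 lncRNA genes, with a TSS near a protein-coding one, 348 had a member region. In 2239 of them (44.4%) there was only a region that also lies within 1 kb of a protein-coding TSS.

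The share with a region rose with the number of annotated transcripts of a gene, in both classes. Among stand-alone lncRNA genes it was 7.09% with 1 transcript, 12.6% with 2 to 4, and 27.1% with 5 or more. Among protein-coding genes these shares were 24.8%, 44.3% and 71.0%. Every transcript's TSS counts, so a gene with more transcripts can have more windows in which a region may fall. The part of this in the rise was not tested. By name, 8.38% of 9902 stand-alone genes with only an Ensembl identifier had a member region. It was 14.5% of those named LINC, 13.2% of antisense genes (names ending in -AS) and 40 of 84 snoRNA and microRNA host genes, or 47.6% (36.6 to 58.8%). Of the 1774 genes, 1371 had 1 member region, 310 had 2, 67 had 3 and 26 had 4 or more. By region, 1092 of the 2116 members have a nearest lncRNA known only by an Ensembl identifier, 200 lie near TSSs of 2 or more lncRNA genes and 8.32% lie near a TSS of another gene type.

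Lists of lncRNAs with known roles were set beside these shares. They were drawn up with earlier results of these data known and are a description. A gene was counted as having its own region where a member lay within 1 kb of one of its TSSs. Of the B cell and immune lncRNAs 24 of 37 had one (64.9%, interval 47.5 to 79.8%), of the broadly expressed lncRNAs 16 of 28 (57.1%), of the snoRNA hosts 14 of 32 (43.8%) and of the microRNA hosts 30 of 81 (37.0%). Of the lncRNAs of other lineages and cancers 3 of 39 had one (7.69%, 1.62 to 20.9%), an interval that includes the 9.54% of all lncRNA genes. The median of the strongest region per gene was 137.6 in the B cell and immune list, 204.6 in the broadly expressed list, 157.7 in the snoRNA hosts and 46.6 in the microRNA hosts. It was 48.2 over all 1774 lncRNA genes with a member. That strongest region was strong, at 74.9 or more, for 12 of 14 snoRNA hosts, 13 of 16 broadly expressed lncRNAs, 14 of 24 B cell and immune lncRNAs and 11 of 30 microRNA hosts, against 39.3% of the 1774 genes. Over stand-alone genes alone the order of the lists was another, with a member in 13 of 15 broadly expressed lncRNAs (86.7%), 14 of 18 snoRNA hosts (77.8%), 20 of 26 B cell and immune lncRNAs (76.9%), 28 of 68 microRNA hosts (41.2%) and 1 of 17 lncRNAs of other lineages and cancers (5.88%), against 10.5% of all stand-alone lncRNA genes. The listed genes have symbols, and of stand-alone lncRNA genes with a symbol 16.3% had a member. The B cell list shares 8 genes with the microRNA hosts.

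**Figure D4:**
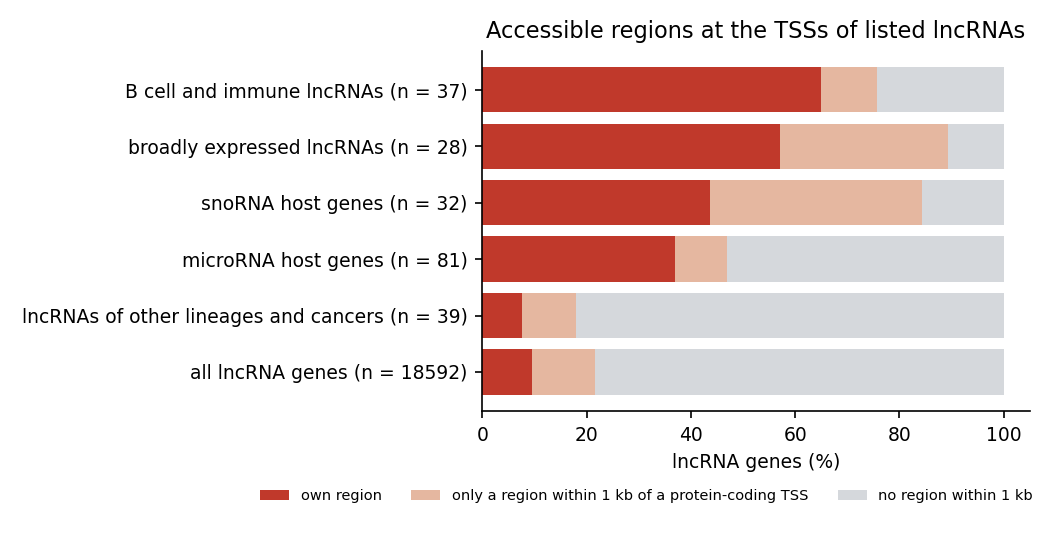
Percent of the lncRNA genes of each list (rows, number of genes in brackets) with their own region, with only a region within 1 kb of a protein-coding TSS, or with no region within 1 kb of a TSS. The share with their own region was 64.9% in the B cell and immune list and 7.69% in lncRNAs of other lineages and cancers, and it was 9.54% over all lncRNA genes, in the bottom row.

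The snoRNA hosts make the RNAs that guide chemical modification of ribosomal and spliceosomal RNA. Their strongest members were those of SNHG8 (2165) and DANCR (2162), followed by EPB41L4A-AS1 with 505.2 and SNHG29 with 401.8. SNHG8 had a second member of 40.9, and DANCR had others of 214.1 and 31.6. Over the 14 hosts with a member the strongest region ranged between 28.6 and 2165. A further 13 of the 32 hosts had only a region shared with a protein-coding promoter. SNHG14, SNHG18, SNHG27 and SNHG32 had none, nor had SNHG7, which was named after its value was seen. SNHG14 is the long neuronal host in the imprinted Prader-Willi region.

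Hosts of microRNAs were led by MIR3142HG with 4 members. Its scores were 1349, 318.2, 104.4 and 22.8, the first and last 282 bp upstream and 829 bp downstream of an inner TSS and the other pair at the outer TSS. MIRLET7A1HG had members of 832.9 and 343.4, and MIRLET7IHG had 783.3 and 456.7. MIR17HG, the host of the miR-17-92 cluster and a target of MYC, had 708.3, 451.9 and 45.8. All of these lay above the list's median of 46.6 except the weakest region of MIR3142HG and of MIR17HG, and the lowest of the 30 hosts with a member was at 18.7. From these hosts, and from MIR155HG and MIR142HG described next, 1 mature arm of each hairpin other than MIR3142 is shown with its seed (bases 2 to 8, which pair with the target) in capitals, because some of them share a seed. The sequences are from the RefSeq table for GRCh38.p14.
hsa-let-7a-5p (MIRLET7A1HG): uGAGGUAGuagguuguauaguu
hsa-let-7f-5p (MIRLET7A1HG): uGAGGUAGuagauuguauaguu
hsa-let-7d-5p (MIRLET7A1HG): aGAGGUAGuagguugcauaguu
hsa-let-7i-5p (MIRLET7IHG): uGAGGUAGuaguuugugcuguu
hsa-miR-17-5p (MIR17HG): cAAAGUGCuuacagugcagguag
hsa-miR-20a-5p (MIR17HG): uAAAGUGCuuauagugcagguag
hsa-miR-18a-5p (MIR17HG): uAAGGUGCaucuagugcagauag
hsa-miR-19a-3p (MIR17HG): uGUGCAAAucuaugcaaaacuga
hsa-miR-19b-3p (MIR17HG): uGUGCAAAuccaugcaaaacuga
hsa-miR-92a-3p (MIR17HG): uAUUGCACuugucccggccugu
hsa-miR-146a-5p (MIR3142HG): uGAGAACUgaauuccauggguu
hsa-miR-155-5p (MIR155HG): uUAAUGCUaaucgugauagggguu
hsa-miR-142-3p (MIR142HG): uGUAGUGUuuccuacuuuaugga
The 4 let-7 microRNAs of 2 separate hosts share 1 seed. Within MIR17HG, miR-17-5p and miR-20a-5p share a seed, as do miR-19a-3p and miR-19b-3p. The other sequences shown each have a seed of their own among these.

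MIR155HG and MIR142HG were added after their values were seen, because their microRNAs are known in lymphocytes. MIR155HG, first described as the BIC gene of B cell lymphoma, had members of 188.7 and 47.4. MIR142HG, whose microRNA marks blood cells, had 178.2, 40.9 and 39.4. At the other end, 43 of the 81 hosts had no region at any TSS. The first of these by name were MIR1-1HG (miR-1, muscle), MIR122HG (miR-122, liver), MIR124-1HG and MIR124-2HG (miR-124, neurons).

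In the B cell and immune list the strongest members were those of MIR3142HG (1349) and MIR17HG (708.3), followed by 1 region with a score of 596.8 that DLEU1 and DLEU2 share. The region, chr13:50655966-50656466, lies at the outer TSS of DLEU1 on the plus strand and an inner TSS of DLEU2 on the minus strand. It is in the interval lost in many chronic lymphocytic leukaemias. No region lay within 1 kb of a TSS of CD27-AS1, FAM30A, HCP5 or HLA-DQB1-AS1, the first 4 by name of the 9 without one. The broadly expressed list was led by LINC00938 (1000.3) and by JPX (542.1), an activator of X inactivation. TTN-AS1, with 423.2, and FIRRE, a nuclear RNA that organises chromatin contacts, with 401.8, came next. MALAT1 (104.4) and NEAT1 (31.6), abundant nuclear RNAs of speckles and paraspeckles that were named after their values were seen, had 1 member each. In this list MIRLET7BHG, NORAD and SCARNA9 had no region.

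Of the lncRNAs of other lineages and cancers 3 had a member. SOX2-OT had 82.1 at chr3:181419709-181420209, a strong region, while MIAT had 27.2 and PCAT1 had 17.3, below the median of 48.2 for the strongest region of all lncRNA genes with one. A further 4 genes, named after their values were seen, had only a region that also lies within 1 kb of a protein-coding TSS. Its score was 1341 for MYOSLID (beside KLF7), 652.2 for HULC (beside SLC35B3), 76.7 for HOXA-AS3 (beside HOXA6) and 20.0 for HOXC-AS3 (beside HOXC10). Of the 39 genes, 32 had no region. The first by name were BCAR4, CARMN, DIO3OS and DLX6-AS1.

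Some lncRNA genes held many members along their span. LINC00511, an intergenic gene of 350380 bp on chromosome 17 with 84 distinct TSSs, had 17, with scores of 33.1 to 524.8 and a median of 60.9. CASC19 had 8 (17.3 to 248.8, 72 TSSs) and PVT1, the neighbour of MYC, had 7 (18.7 to 151.6, with more TSSs than LINC00511), both on chromosome 8. LINC02363 had 6 (21.4 to 432.7) with only 5 TSSs, and LINC01962 had 6 (20.0 to 325.1) with 3. LINC00461, next to MEF2C, also had 6 (18.7 to 64.3). The number of TSSs, which sets how many windows a gene has, did not follow the order of these counts.

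Members were also placed relative to protein-coding genes, from whose TSSs the rule keeps them more than 1 kb away. Shares by gene body were not taken for the other classes or for all regions, so they describe the members only. The centre lay outside every protein-coding gene body in 1646 (77.8%), with a median score of 45.8 (40.9 to 47.4). It lay within one on the strand opposite to the lncRNA in 364 (17.2%), with a median of 33.1 (28.6 to 36.2), and on the same strand in 93, with 36.2 (28.6 to 52.4). The distance to the nearest protein-coding TSS was 1 to 2 kb for 253 members, 2 to 5 kb for 204, 5 to 20 kb for 531, 20 to 100 kb for 720 and more than 100 kb for 408. The median scores of these bins were 40.9, 34.7, 45.8, 42.5 and 40.9, with no steady trend. The strongest members of the bins were LINC00938 (1998 bp from ARID2), LINC01431 (3943 bp from GZF1), ENSG00000243176 (14297 bp from CCNL1), LINC01003 (27323 bp from KMT2C) and LINC02018 (228932 bp from FRG2C). CpG-rich regions made up 36.4% of members at 1 to 2 kb and 19.9% beyond 100 kb.

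The nearest protein-coding gene had an accessible promoter of its own for 1556 members (73.5%), with 87.7% at 1 to 2 kb and 71.8% beyond 100 kb. Over all protein-coding genes, each counted once, the share with a promoter region was 57.2%. That share counts genes and the 73.5% counts members, so they are not directly comparable. The share of distal regions or of all regions with such a nearest gene was not taken. Members beside such a gene had a median score of 42.5 (39.4 to 47.4), against 37.0 (33.1 to 42.5, n = 560) beside a gene without one, and the intervals overlap. Relative to the lncRNA, the centre fell in an exon in 773 members (median score 49.1), in an intron in 684 (34.7) and outside every lncRNA gene in 659 (40.9).

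Sequence motifs placed the lncRNA promoters between protein-coding promoters and distal regions. The letters searched on both strands were, for factors common at CpG-rich promoters, ETS CCGGAAGT, NRF1 GCATGCGC, YY1 AAGATGGCG, SP/KLF GGGGCGGGG, NFY CCAATCA and CRE TGACGTCA, and CAGGGGGCG for CTCF. For factors of blood and B cells they were PU.1 GAGGAAGT, RUNX TGTGGTTT, octamer ATGCAAAT, NF-kB GGGANTTTC, ISRE GAAANNGAA, AP-1 TGANTCA, EBF1 CCCNNGGG, E2A CAGGTG and MEF2 CTANNNNTA, with TATAAAA for the TATA box. A match is a description of the letters and not a bound site. Matches overlapped most between SP/KLF and EBF1 (14 members) and between MEF2 and TATA (7 members).

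The promoter motifs were rarer in lncRNA promoters than in protein-coding ones and more frequent than in distal regions. SP/KLF letters were in 11.5% of lncRNA promoters (10.2 to 13.0%), against 24.9% of protein-coding promoters, 1.57% of distal regions and 10.1% of all regions. ETS letters were in 2.74% (2.09 to 3.53%), against 6.76% of protein-coding promoters, 0.493% of distal regions and 2.76% of all. NRF1 letters were in 2.69%, against 4.98% of protein-coding and 0.873% of distal regions. YY1, at 0.756% against 3.26% of protein-coding promoters, had the lowest ratio of the 17, 0.232. CTCF letters were in 2.84%, against 4.23% of protein-coding promoters and 0.639% of distal regions. NFY letters were in 7.37%, against 8.87% of protein-coding promoters and 5.60% of distal regions. CRE letters were in 1.94%, against 2.72% of protein-coding promoters and 0.398% of distal regions. The interval of the difference from protein-coding promoters lay below 0 for each of these 7 motifs. For YY1 the share over all regions was 1.254%, above that of the members. It was 2.422% for NRF1, 2.096% for CTCF, 6.6% for NFY and 1.272% for CRE, each below the members. The member intervals for NRF1 (2.05 to 3.48%) and NFY (6.29 to 8.57%) include the share over all regions.

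Against protein-coding promoters, motifs of blood cell factors leaned the other way. AP-1 letters were in 17.9% of lncRNA promoters (16.3 to 19.6%), against 9.01% of protein-coding promoters, 21.4% of distal regions and 16.9% of all regions. RUNX was in 4.49%, against 2.25% of protein-coding promoters and 6.46% of distal regions, and the octamer in 3.78%, against 2.09% of protein-coding promoters and 3.88% of distal regions. The octamer share differed from that of distal regions by −0.0961 points (−0.892 to 0.849), and the PU.1 share, 5.20%, by −0.0633 points from the distal 5.26% (−1.002 to 1.02). Against protein-coding promoters the intervals for PU.1 (0.915 points, −0.00990 to 1.99) and NF-kB (0.646 points, −0.0536 to 1.501) include 0. ISRE, E2A, MEF2 and TATA were also more frequent than in protein-coding promoters and less frequent than in distal regions, at 14.8%, 41.4%, 29.6% and 5.77%. Over all regions the shares were 4.99% for RUNX, 15.2% for ISRE, 42.3% for E2A, 34.2% for MEF2 and 7.07% for TATA, each above the members. Those of the octamer, PU.1 and NF-kB were 3.30%, 5.14% and 3.06%, below the members (3.07% for NF-kB) by little. EBF1 letters, which are rich in GC, went with the promoter motifs, at 27.3% of lncRNA promoters against 33.8% of protein-coding promoters and 16.7% of distal regions. Over all regions the EBF1 share was 23.8%. GC content moves with the classes (55.0% in lncRNA promoters, 61.3% in protein-coding promoters and 48.1% in distal regions), and its part in these shares was not tested.

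**Figure D5:**
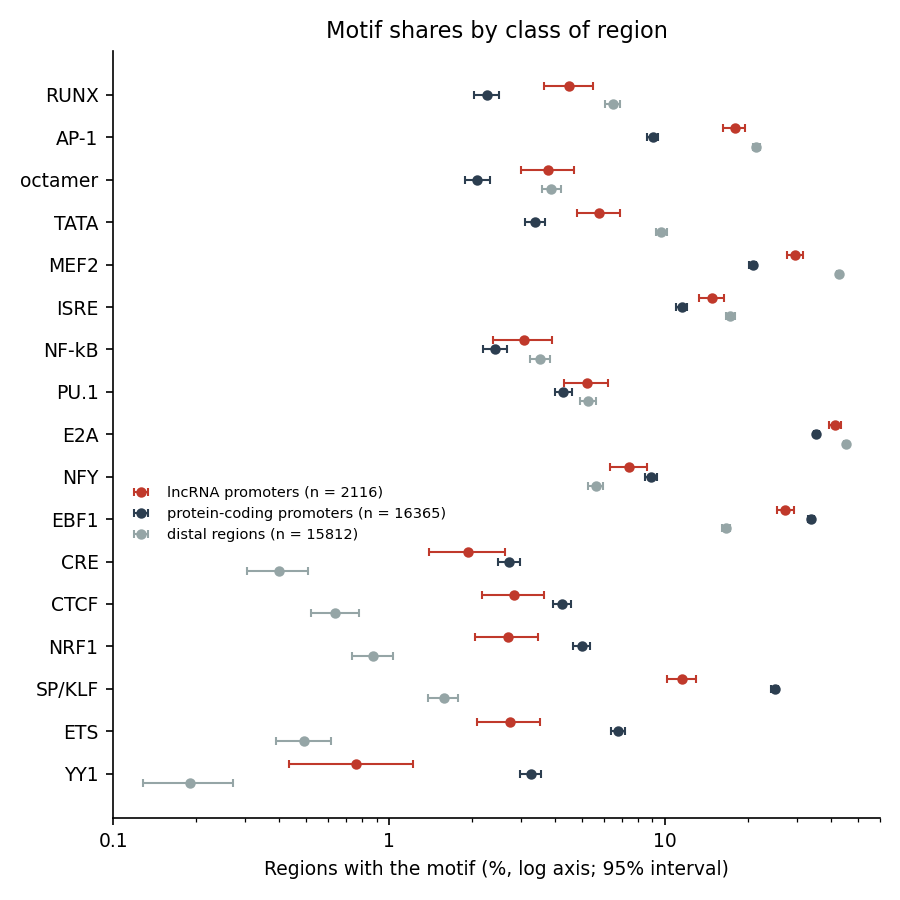
Percent of regions holding each of 17 motifs (points, log axis) with exact intervals (bars), for lncRNA promoters above, protein-coding promoters in the middle and distal regions below in each row, ordered by the ratio of lncRNA to protein-coding shares. RUNX and AP-1 lead at ratios of 1.99 and 1.98, and YY1 is last at 0.232.

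Within the lncRNA promoters, members with a promoter motif had higher median scores. The median score was 176.2 for the 41 members with CRE letters, 140.98 for the 16 with YY1, 87.6 for the 57 with NRF1, 86.7 for the 244 with SP/KLF and 83.9 for the 58 with ETS. Members without the letters had 37.8 for SP/KLF and 40.9 for each of the others. These members were also richer in GC, for example 64.5% with SP/KLF letters against 53.8% without. For letters of blood cell factors the medians differed less and in both directions. They were 52.4 with RUNX, 47.4 with NF-kB, 46.6 with PU.1, 44.2 with AP-1, 42.5 with ISRE and 42.5 with the octamer, against 40.9 without each, and 47.4 with EBF1 letters, against 39.4 without. Members with E2A letters had 36.2, against 45.8 without, and those with MEF2 letters had 36.2, against 44.2 without. For the TATA letters the median was 37.0, against 40.9 without.

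The strongest member with NF-kB, PU.1 or octamer letters was the same region, the inner promoter of MIR3142HG. It held 1 match of each outside the central stretch shown above, and these are given with 10 bp on each side and the letters in capitals.
PU.1, chr5:159894870-159894897: cctgaccagaACTTCCTCgggggaggct
NF-kB, chr5:159895128-159895156: ggatctagaaGGGACTTTCcagagagggt
octamer, chr5:159895181-159895208: ataaaagcatATGCAAATaggccttagc
The PU.1 match lies before the stretch shown above, and the NF-kB and octamer matches lie after it. The strongest member with CTCF letters anywhere in the region was that of ENSG00000291051 (739.2), with a match on the minus strand, shown as it reads on the plus strand.
chr16:75551440-75551468: ttctctgcagCGCCCCCTGtaggaaagaa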

How the data were processed

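Accessibility was measured by single-cell ATAC-seq in unstained GM12878 cells. The authors mapped the trimmed pairs to hg19, took the uniquely mapped reads and discarded mitochondrial reads, duplicates and reads of low quality. They then pooled the cells, called peak summits, and deposited the best summits by q-value, each widened by a fixed length. Tools in the submitters' processing notes are Picard 1.79, Bowtie2 2.1.0 and MACS2 (version not given in the sources used here). Whether libraries that failed the study's filter were among the pooled cells is not stated. The deposited value is −log10 of the q-value per region. It holds no counts, so the depth behind the list is unknown, and it has only 784 distinct values, with 3102 regions tied at the lowest.

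Genes were those of GENCODE 44 mapped to GRCh37, on chromosomes 1 to 22 and X, with every transcript's TSS used. Coordinates are 1-based. Base composition and motifs were read from the GRCh37 sequence. Intervals of shares are exact binomial (Clopper-Pearson), of differences of shares Newcombe's, and of medians exact binomial order statistics, all at 95%. No test was run, since 1 list of 1 group has no replicate. Members and lists were chosen with earlier results of these data known. The genes named were the 10 strongest members, the 4 strongest of each list with up to 4 without a region in alphabetical order, the 5 genes with most members (all 3 with 6 members are given), the strongest of each distance bin and of 5 motifs, and others only where said. A marker gene and the strongest region of 1 motif are not reported here. MicroRNA hairpins, or the mature sequence where the table had no hairpin, were matched to the host's span. The class assignment, motif search and intervals were tested on simulated data. Alternatives changed the window, TSS set, part of the list and distal limit. Computations used pysam 0.24.0, statsmodels 0.14.6, scipy 1.17.1, pandas 2.3.3, numpy 2.4.6 and matplotlib 3.10.9 under Python 3.11.15.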

Additional observations from a re-analysis of the deposited data

How the results depend on the processing

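No alternative turned the direction of the score difference from either class, and the values below differ from the main ones. With a window of 500 bp the median score of lncRNA promoters was 49.1, the share of strong regions 37.5%, the mean GC 56.5% and the share of stand-alone lncRNA genes with a region 8.95%. With a window of 2 kb these were 34.7, 28.6%, 53.6% and 13.3%, and the median exceeded the distal one by 10.4. With the outermost TSS of each gene the first 3 were 45.8, 36.7% and 57.6%, and the median differed from that of protein-coding promoters by −36.3. Where the region had to overlap the TSS they were 59.2, 44.0% and 58.3%, with differences of −39.6 from protein-coding promoters and 34.9 from distal regions. Regions at or above the median score of the list left 1301 members with a median of 82.1, a GC of 56.3%, a difference of 26.4 from distal regions and 7.01% of genes. lncRNA genes with a symbol left 1065 members, of which 35.0% were strong, and 16.3% of genes had one. With 1 region per called peak the GC was 55.5% and the difference from protein-coding promoters −37.6, and without a TSS of another gene type the GC was 54.5%. Of the 17 motif differences from protein-coding promoters, none changed sign in the central stretch of 100 bp to each side or at or above the median score. The interval came to include 0 for CRE in both, and for CTCF and ISRE in the central stretch. It came to exclude 0 for PU.1 in both and for NF-kB at or above the median score. No paired analysis was possible because the list was called on the pooled cells and no result comes from a test, and for the same reason no library could be left out. The depth behind the list is unknown, so a lncRNA gene without a region is one not detected in this list.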

Other observations

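The share of stand-alone lncRNA genes with a member region differed between chromosomes, from 4.85% of 433 genes on chromosome 18 to 15.1% of 689 on chromosome 6. The share of protein-coding genes with a promoter region did not follow the same order, at 66.2% on chromosome 18 and 62.5% on chromosome 6, against 41.1% on chromosome 22. Per Mb, members ranged between 0.412 on chromosome X and 0.963 on chromosome 16. Chromosome 14 had the highest median member score, 79.4 (66 members), and chromosomes 19 and 22 the lowest, 27.2 each (36 and 23 members). The list holds no region at its lowest score, 16.0, on chromosomes 10 to 17, where its lowest is 17.3, although the other chromosomes hold 3102. Of these, 34 lie on chromosome 1 and 469 on chromosome 2. The part of this in the differences between chromosomes was not tested. Without regions at the lowest score 2043 members remained and the median was 42.5.

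Members had more neighbours than distal regions, a difference that the rule for the classes partly fixes. A distal region lies more than 10 kb from every TSS, so hardly any promoter region can lie within 10 kb of it. Within 10 kb members had a mean of 2.04 other regions, against 1.73 for protein-coding promoters, 1.03 for distal regions and 1.66 for all regions. No neighbour within 10 kb was found for 32.2% of members, against 28.7% of protein-coding promoters, 54.4% of distal regions and 37.9% of all regions. Summits that share a called peak with another made up 46.6% of members, against 55.6% of protein-coding promoters and 22.1% of distal regions. Over all regions this share was 36.6%.

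Among stand-alone lncRNA genes that the annotation tags as overlapping a pseudogene, 19.7% of 685 had a member region (16.8 to 22.9%), against 10.5% of all stand-alone lncRNA genes. The nearest lncRNA carries this tag for 6.71% of members.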
